A study of Mus musculus with 3 samples.

Results

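The Dppa5a, Ooep, Dppa2 and Dppa4 genes are neighbours in pairs, and the peaks described here are those that 2 deposited Foxd3 peak lists hold around both pairs. Foxd3 is a forkhead transcription factor of pluripotent cells and the neural crest. All peaks overlapping positions 78150000 to 78300000 of chromosome 9 (the Dppa5a-Ooep neighbourhood, 150 kb) or 48180000 to 48430000 of chromosome 16 (the Dppa4-Dppa2 neighbourhood, 250 kb) were taken, in mm9 coordinates. The neighbourhoods were chosen by the 4 genes and by the positions of peaks already known to be listed there, so the presence and number of peaks in them is a description of that choice. This gave 10 peaks of 7975 in both lists together, of which 7 lay in the Dppa5a-Ooep neighbourhood and 3 in the Dppa4-Dppa2 neighbourhood. The 5 HA members came from a list of 3406 peaks and the 5 Flag members from a list of 4569.

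The cells were mouse embryonic stem cells of the LF2 line that had received a Flag- and HA-tagged Foxd3 (FH-Foxd3) from a pTrip lentivirus and had been selected with neomycin. They were kept without feeders in serum and LIF, and the added protein was expressed near the endogenous level, per the labels. Tagged Foxd3 was precipitated from chromatin with an anti-HA antibody in 1 library and an anti-Flag antibody in another, and total genomic DNA served as the input, which was not analysed here. All 3 samples carried the tagged protein, so none lacked it. Whether the line is 1 clone and which promoter drives the transgene is not given in the sources used here. Each list states positions only, so a peak has a place and a width but no height, and the read depth is unknown. A peak absent from a list was below the authors' threshold in that library, which does not show that no signal was there.

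Dppa5a, also called Esg1, encodes a KH-domain protein that binds RNA and is abundant in naive pluripotent cells. Ooep encodes a related KH-domain protein of the oocyte, where it belongs to the subcortical maternal complex needed for early cleavage. Dppa2 and Dppa4 encode SAP-domain proteins that act together at CpG-rich promoters, keep developmental genes poised and activate genes of the early embryo. All are used as marks of pluripotent or germline identity in the mouse. In RefSeq gene order the members of each pair are adjacent coding genes. Dppa5a and Ooep stand between Gsta2, a glutathione S-transferase, and Ddx43, a DEAD-box helicase of the germline. Dppa4 and Dppa2 stand between the predicted gene Gm52257 and Morc1, which in male germ cells of the mouse silences transposons.

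The selection of the neighbourhoods placed Dppa5a at about 78.21 Mb, Ooep at about 78.22 Mb, Dppa4 at about 48.28 Mb and Dppa2 at about 48.31 Mb. These positions are rounded to 10 kb and were not checked against an mm9 annotation. Those of Dppa4 and Dppa2 also match their places in the RefSeq gene table on GRCm38.p6 at this rounding, while those of Dppa5a and Ooep do not. Whether the positions on chromosome 16 hold in mm9 as well was not settled, so the distances to Dppa4 and Dppa2 may mix builds. No peak could therefore be assigned to a promoter, exon or intron, and each distance to a gene below is a distance to a rounded position.

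A promoter sequence was at hand for only 1 of the 4 genes, Ooep, and is shown for that reason. It holds the 250 bases before the RefSeq start of Ooep, on the minus strand at chr9:78378589-78378838 of GRCm38.p6, a later build than that of the peaks. Capitals mark CpG dinucleotides.
Ooep: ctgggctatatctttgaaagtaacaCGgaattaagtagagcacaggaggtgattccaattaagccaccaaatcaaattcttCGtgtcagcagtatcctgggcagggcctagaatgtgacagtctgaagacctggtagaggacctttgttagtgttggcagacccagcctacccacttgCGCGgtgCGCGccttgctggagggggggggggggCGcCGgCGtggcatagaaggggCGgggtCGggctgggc
These bases held 11 CpG dinucleotides, 9 of them in the 125 bases nearest the start, beside a median of 6 in the 32851 RefSeq promoters cut the same way. Their GC content was 57.2%, and the median of all promoters was 52.4%. Neither strand held the forkhead motif TGTTTAC, present in 3.17% of all promoters, or the forkhead motif TGTTTGC, present in 4.30%. The octamer core TTTGCAT (4.12% of promoters), the Sox motif ACAATGG (3.02%) and the Klf motif GGGTGTG (6.93%) were not found either. Whether a listed peak covers these bases was not determined, because the builds differ.

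Around Dppa5a and Ooep, tagged Foxd3 was listed at 4 sites, and 3 of them were listed with both antibodies. Numbered from low to high positions, site 1 covered 78207369 to 78208170 and site 2 covered 78212590 to 78213200. Site 3, at 78217131 to 78217735, was in the HA list alone. Site 4, at 78222149 to 78223917, was 1769 bp long counting both lists. All 4 lay within 16.5 kb, and the rest of the 150 kb held no listed peak. The gaps between successive sites were 4.42, 3.93 and 4.41 kb, and their centres stood 5.13, 4.54 and 5.60 kb apart.

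Against the rounded gene positions, site 1 was centred about 2 kb below Dppa5a and site 2 about 3 kb above it. Site 3 was centred about 3 kb below Ooep and site 4 about 3 kb above it. With positions known to the nearest 10 kb, these values place the sites in the stretch that holds both genes and do not order them against either gene. The gene table also lists the pseudogenes Dppa5b and Dppa5c on chromosome 9. How the authors treated reads that match several copies is not given in the sources used here, and whether the sites lie in duplicated sequence was not tested.

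Around Dppa4 and Dppa2 only 2 sites were listed, and they were 118 kb apart. A Flag peak from 48303178 to 48304071 lay between the rounded positions of both genes, about 24 kb above that of Dppa4 and 6 kb below that of Dppa2. It had no HA partner, and the nearest HA peak was 118 kb away. The other site, from 48422307 to 48423090, was listed with both antibodies. It was centred about 113 kb beyond the rounded position of Dppa2 and 143 kb beyond that of Dppa4, on the side of Morc1 in gene order. The HA list thus held no peak closer to either gene than this one.

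**Figure D1:**
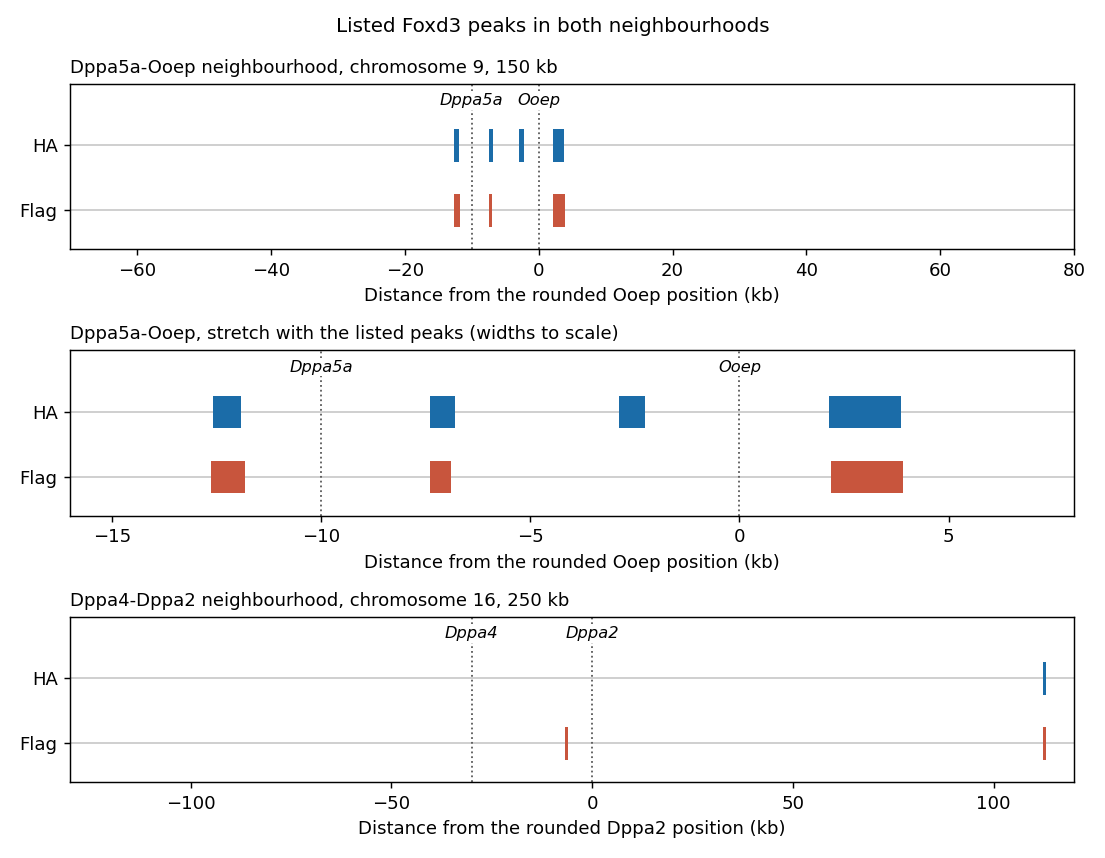
Peaks of the HA list (blue, upper row) and the Flag list (red, lower row), drawn to scale along the distance in kb from the rounded Ooep position (top and middle) or the rounded Dppa2 position (bottom). Dotted lines are rounded gene positions; the 4 Dppa5a-Ooep sites sit within 16.5 kb, while the 2 Dppa4-Dppa2 sites are 118 kb apart.

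Within these bounds, both lists held more peaks per kb around Dppa5a and Ooep than around Dppa4 and Dppa2. The Dppa5a-Ooep neighbourhood held 4 HA peaks, or 2.67 per 100 kb, and the Dppa4-Dppa2 neighbourhood held 1, or 0.40 per 100 kb. The Flag list had 3 peaks, or 2.0 per 100 kb, around Dppa5a and Ooep and 2 peaks, or 0.80 per 100 kb, around Dppa4 and Dppa2. The densities of the whole lists were 0.130 HA and 0.175 Flag peaks per 100 kb. With 100 kb added on each side, HA counts were 4 around Dppa5a and Ooep and 3 around Dppa4 and Dppa2. Flag counts were then 4 around each pair. The widened Dppa5a-Ooep neighbourhood was still the shorter one, so it held more peaks per kb in both lists. The size of the contrast depended on the bounds.

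By length, HA peaks covered 3583 bp (2.39%) of the Dppa5a-Ooep neighbourhood and 784 bp (0.314%) of the Dppa4-Dppa2 neighbourhood. Flag peaks covered 3023 bp (2.02%) of the Dppa5a-Ooep and 1511 bp (0.604%) of the Dppa4-Dppa2 neighbourhood. The neighbourhoods were chosen with their peaks known, so these densities describe the choice and were not tested. As a scale, tiles of 150 kb laid end to end along the chromosomes held at least 4 HA peaks in 0.258% of 17461 cases and at least 3 Flag peaks in 1.37%. Tiles of 250 kb held at least 1 HA peak in 22.9% of 10482 cases and at least 2 Flag peaks in 9.72%.

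Of the HA members, 3 of 4 around Dppa5a and Ooep and the 1 around Dppa4 and Dppa2 overlapped a Flag peak by at least 1 bp, beside 73.3% of the whole HA list. Of the Flag members, 3 of 3 around Dppa5a and Ooep and 1 of 2 around Dppa4 and Dppa2 overlapped an HA peak, beside 54.7% of the whole Flag list. The members are too few for these counts to be read against the shares of the lists.

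Dppa5a-Ooep site 4 carried the widest member peak of each list. Its HA peak measured 1705 bp, the 16th widest of the HA list, and 99.5% of HA peaks were narrower. Its Flag peak measured 1717 bp, the 32nd widest of the Flag list, and 99.3% of Flag peaks were narrower. Among the 2474 exclusive pairs of an HA and a Flag peak, each overlapping no other peak, 2 pairs, this one included, were at least as wide with both antibodies.

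The other members were nearer the middle of their lists, where the median width was 547 bp for HA and 490 bp for Flag. At Dppa5a-Ooep site 1 the HA peak was 673 bp wide and the Flag peak 802 bp, with 70.1% of HA and 85.1% of Flag peaks narrower. At site 2 the HA peak was 600 bp wide and the Flag peak 504 bp, with 58.9% and 52.4% narrower. Among shared peaks alone, 67.5% of HA and 79.9% of Flag peaks were narrower at site 1, and 55.6% and 39.8% at site 2. The Flag peak of site 2 was thus below the median of 548 bp for shared Flag peaks. The HA peak at site 3, without a Flag partner, was 605 bp wide, above the median of 498 bp for the 910 HA-only peaks.

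The Dppa4-Dppa2 site of both antibodies was 784 bp wide in HA and 617 bp in Flag, with 81.6% of HA and 69.5% of Flag peaks narrower. Among shared peaks alone, 79.8% of HA and 59.8% of Flag peaks were narrower. The Flag-only peak of the Dppa4-Dppa2 neighbourhood was 894 bp wide. The 2072 Flag-only peaks had a median of 407 bp, and 93.9% of them were narrower than this one. The members of the Dppa4-Dppa2 neighbourhood were therefore wider than the median peak of their lists, but none approached Dppa5a-Ooep site 4.

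**Figure D2:**
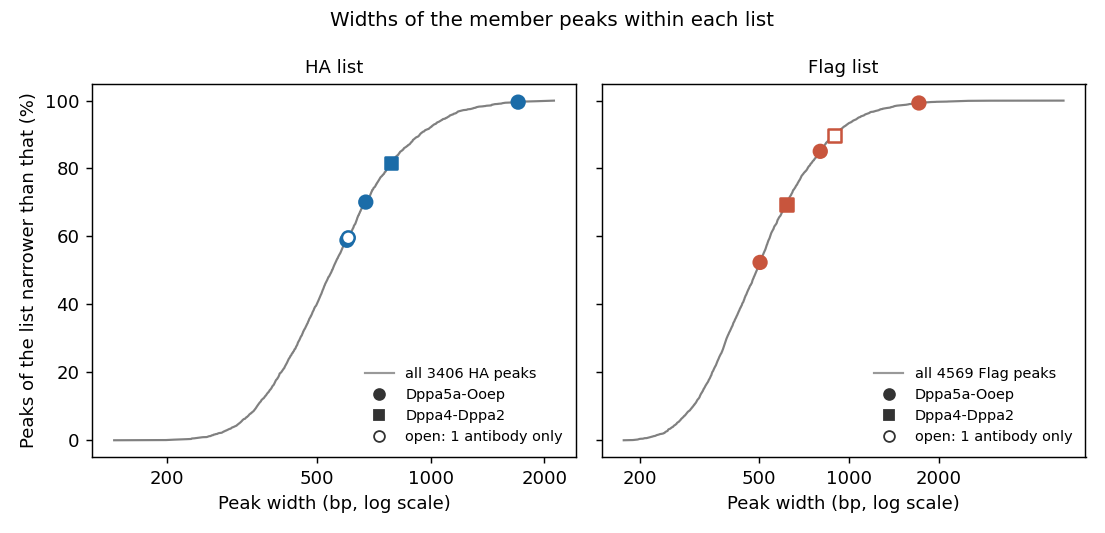
Share of the peaks of a list that are narrower (vertical axis, %) against peak width (horizontal axis, bp, log scale), for HA (left) and Flag (right), with the member peaks as circles (Dppa5a-Ooep) and squares (Dppa4-Dppa2), filled where both antibodies listed the site. The grey line is the whole list; Dppa5a-Ooep site 4 stands at 1705 bp in HA and 1717 bp in Flag, near the top of both.

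Where both antibodies listed a member site, they placed it at almost the same position. The centres of the HA and Flag peaks were 17.5, 59.0 and 58.0 bp apart at Dppa5a-Ooep sites 1, 2 and 4 and 5.5 bp apart at the Dppa4-Dppa2 site. The median over all 2474 pairs was 50.5 bp (interquartile range 23.0 to 96.9 bp). The offsets at Dppa5a-Ooep sites 2 and 4 fell inside that range, and those at Dppa5a-Ooep site 1 and at the Dppa4-Dppa2 site were smaller. At Dppa5a-Ooep site 1 the HA peak lay wholly inside the Flag peak, and at the Dppa4-Dppa2 site the Flag peak lay wholly inside the HA peak. The overlap was 493 bp (97.8% of the shorter peak) at Dppa5a-Ooep site 2 and 1653 bp (97.0%) at site 4.

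The antibodies did not give 1 order of widths. HA minus Flag, the width differed by -129, 96 and -12 bp at Dppa5a-Ooep sites 1, 2 and 4 and by 167 bp at the Dppa4-Dppa2 site. Over all pairs the HA peak was wider in 1269 and the Flag peak in 1200.

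**Figure D3:**
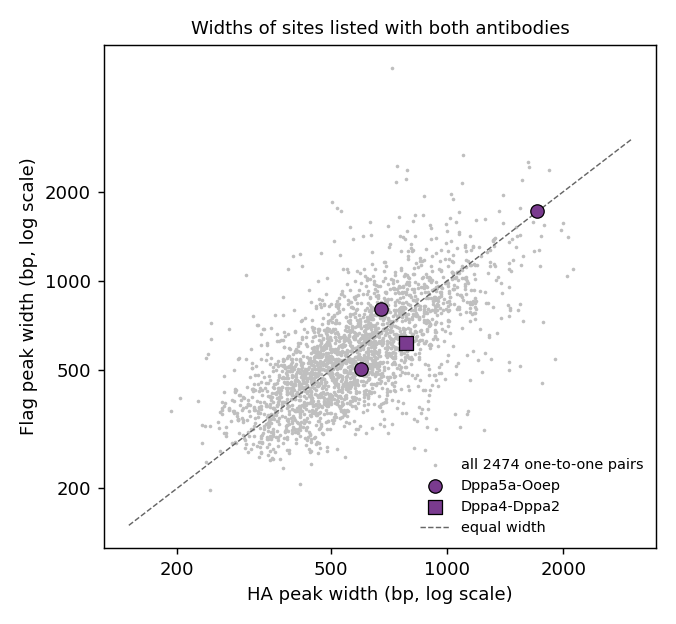
HA width (horizontal axis) against Flag width (vertical axis), both in bp on log scales, for the 2474 exclusive HA-Flag pairs (grey), with the 3 Dppa5a-Ooep sites as circles and the Dppa4-Dppa2 site as a square. The dashed line marks equal widths; Dppa5a-Ooep site 4, at 1705 by 1717 bp, lies almost on it near the upper end.

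The order of lines in the lists ranked the members differently from their widths. The lists do not state what their order is. From the first to the last 25% of lines, the median width fell from 634 to 479 bp in HA and from 575 to 431.5 bp in Flag. The share of peaks listed with both antibodies fell from 96.5% to 45.6% in HA and from 68.9% to 34.8% in Flag. The HA peak of the Dppa4-Dppa2 neighbourhood stood 15.9% of the way down its list and its Flag partner 7.57%, ahead of every Dppa5a-Ooep peak in either list. The widest Dppa5a-Ooep site stood at 36.5% of the HA lines and 69.2% of the Flag lines. Dppa5a-Ooep site 1 stood at 64.0% of the HA and 90.2% of the Flag lines, and site 2 at 65.2% and 44.6%.

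The HA-only peak of the Dppa5a-Ooep neighbourhood stood at 69.4% of the HA lines, little later than the HA peaks of sites 1 and 2. In its quartile of lines, the third, 67.0% of HA peaks were shared. The Flag-only peak of the Dppa4-Dppa2 neighbourhood stood at 94.5% of the Flag lines, later than every other Flag member. In the last 25% of Flag lines 34.8% of peaks were shared.

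**Figure D4:**
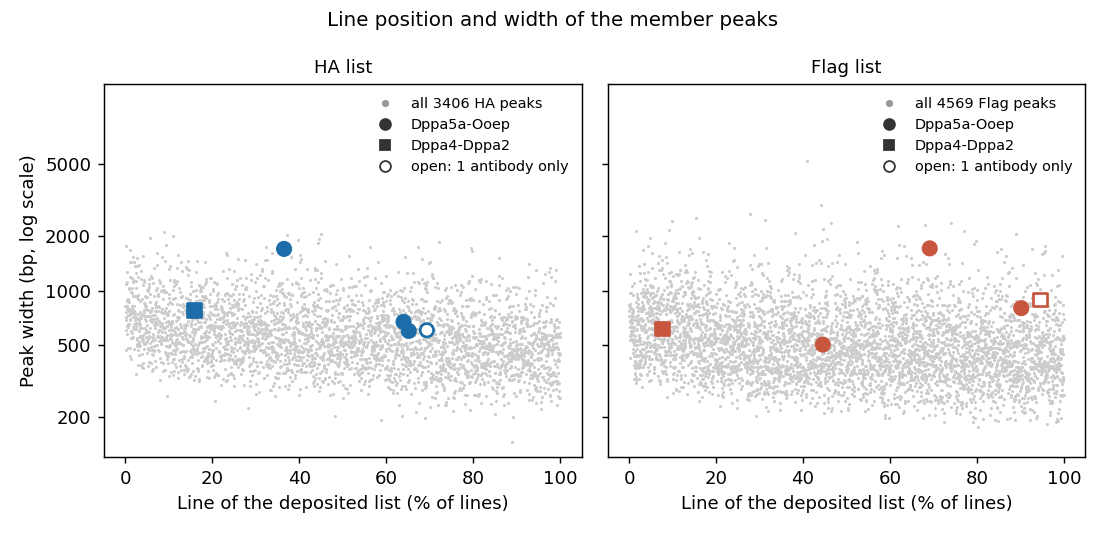
Width (vertical axis, bp, log scale) against place in the deposited list (horizontal axis, % of lines) for HA (left) and Flag (right), with all peaks in grey and members marked as circles (Dppa5a-Ooep) or squares (Dppa4-Dppa2), open where 1 antibody listed the site. The Dppa4-Dppa2 site of both antibodies is the leftmost member of each panel, at 15.9% and 7.57%.

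The Dppa5a-Ooep peaks formed a group in each list, of middling density in the HA list and loose in the Flag list. When peaks less than 12.5 kb apart were linked, 3.55% of HA peaks fell in groups of 3 or more, and all 4 HA members around Dppa5a and Ooep formed 1 such group. The HA list had 12 groups of 4 or more, 9 of them with exactly 4 peaks. Ordered by span among those 9, the Dppa5a-Ooep group ranked 5 from the shortest, at 16.4 kb, in a range of 11.5 to 34.8 kb. The next in that order, at 34644043 to 34660684 of chromosome 3, spanned 16.6 kb with a mean gap of 4.36 kb. The mean gap of the Dppa5a-Ooep group was 4.29 kb, and 13 of the 34 HA groups of 3 or more had a smaller one. These groups differed in their Flag partners, since 3 of 4 peaks were shared around Dppa5a and Ooep and 4 of 4 on chromosome 3. In the Flag list the 3 Dppa5a-Ooep peaks formed a group of 3 that spanned 16.5 kb, where 3.55% of all Flag peaks fell in groups of 3 or more. By span it ranked 36 from the shortest among the 38 Flag groups of 3, which had a median of 12.3 kb and a range of 4.04 to 20.15 kb. Its mean gap was 6.76 kb, and 42 of the 48 Flag groups of 3 or more had a smaller one. Its gaps were 4.42 and 9.11 kb, and site 3, below the threshold in the Flag list, lies in the wider of them.

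The bounds bore on the Dppa4-Dppa2 neighbourhood and hardly on the other. Its site of both antibodies lay 6.91 kb inside the upper bound. The next one, also of both antibodies, lay just outside, with an HA peak of 513 bp at 48435580 to 48436092 and a Flag peak of 576 bp at 48435506 to 48436081. The gap between these sites was 12.489 kb in HA and 12.504 kb in Flag, so the linking distance of 12.5 kb joined them in the HA list and not in the Flag list. A further site of both antibodies, 871 bp wide in HA and 620 bp in Flag, began at 48474961. With the upper bound moved up by 100 kb, 3 sites of both antibodies thus stood above the rounded Dppa2 position. On the other side, the nearest peak outside the lower bound was 1678.7 kb from it in HA and 1678.8 kb from it in Flag. The Dppa5a-Ooep sites were 57.4 kb or more from the lower bound and 76.1 kb from the upper one. The peaks nearest to that neighbourhood were an HA peak of 1576 bp and its Flag partner of 730 bp, about 110 kb below it, and a Flag-only peak of 908 bp 68.1 kb above it.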

How the data were processed

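The deposited lists hold 3 columns (chromosome, start and end), tested on the files, and no score, height or read count. Per the submitters' processing notes, positions refer to mm9. How reads were aligned, how peaks were called and at what threshold, and how the input was used is not given in the sources used here. Starts were converted from 0-based to 1-based. Members were found by overlap with the neighbourhoods, and overlaps of at least 1 bp, checked against bedtools 2.31.1, counted as shared. Percentiles, line positions and gaps were computed with pandas 2.3.3 and numpy 2.4.6 in Python 3.11.15. Chromosome lengths were taken as the last peak end. Code was tested on simulated data. The named genes were the 4 members and their neighbours in gene order, and every member peak was named. Members, gene lists and settings were chosen with earlier results of these data known, and each antibody has 1 library, so no test was made. Gene order and the promoter came from RefSeq tables on GRCm38.p6. Distances to annotated starts, motifs under peaks, other Dppa and maternal complex genes, and protein comparisons were not run.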

Additional observations from a re-analysis of the deposited data

How the results depend on the processing

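Of 40 values recomputed under an alternative, 33 stayed within 1.5 times the reported count or, for median widths, within the spread of the members, and 7 moved. Some of the 33 could not move. The median width of the shared members alone always lies within the spread of all members. In Flag around Dppa4 and Dppa2 it fell from 755.5 to 617 bp. Every member was wider than the median of its list, so keeping the wider 50% of each list removed none. Widening the bounds by 100 kb raised the Dppa4-Dppa2 count to 3 HA and 4 Flag peaks. The Dppa5a-Ooep count stayed at 4 in HA and rose from 3 to 4 in Flag. Keeping the first 50% of the lines, a setting chosen after seeing the data, left 1 HA and 1 Flag peak around Dppa5a and Ooep, with 0 shared in HA and 0 in Flag, and 1 Flag peak around Dppa4 and Dppa2. These follow from the line positions given above. Every count of shared members was the same when 50% of each peak had to overlap, when centres had to lie within 100 bp, and in the wider 50% of each list. Linking distances of 5 and 25 kb, also added later, left the HA group at 4 peaks. In Flag, 5 kb split the group of 3 peaks to 2. That change lies at the limit of 1.5 times and was counted among the 33. No paired analysis was possible because there is 1 library for either antibody, and for the same reason no replicate was left out. Read depth is unknown, so no limit was set on signal below the threshold.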
